A study of Mus musculus with 28 samples.

Results

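A small group of promoter fragments took part in many more contacts than the rest during the conversion of Pre-B cells into macrophages. Hub promoters are taken here as bait fragments with 50 or more different partner fragments in at least 1 of the 4 lists of promoter contacts, each pair of fragments being counted once per list. The rule was met by 566 of 18175 bait fragments, and 17609 baits stayed below it. Since the members were chosen by their contact numbers, these numbers are given as a description without a test. Of the baits just inside the threshold, 46 had a highest number of exactly 50, and 37 baits just outside it reached 49.

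Promoter Capture Hi-C (PCHi-C) joins DNA ends that lie near each other in the nucleus and then enriches the ligation products that hold a promoter fragment, the bait. Each product also carries the partner fragment, so that the list of a bait shows where its promoter was in contact with other promoters or with distal DNA. A promoter with many partners may touch many separate sites or 1 broad stretch of neighbouring fragments, and its contacts are often with distal elements such as enhancers. In the blood lineage, C/EBPα is a transcription factor that drives myeloid genes, and its expression in B cell precursors converts them into macrophages.

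The study followed C10 cells, a mouse Pre-B line derived from HAFTL cells, which carry a rat C/EBPα fused to the hormone-binding domain of the estrogen receptor in all samples, the uninduced ones included. Cells were taken uninduced (0h) and after 1h, 12h and 48h with 100 nM β-estradiol, 10 nM IL-3 and CSF-1. RNA-seq had 3 libraries labelled as biological replicates at each of the 4 time points, 12 in all. PCHi-C had 2 replicates per time point that the authors merged before they called contacts, so each contact number is 1 value with no replicate error. The promoter that drives the fusion gene is not given in the sources used here, and the groups are time points of 1 line, so that p-values for RNA measure the spread between its cultures.

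In the order of the time points, the lists held 138769, 137836, 131598 and 144072 contacts. For RNA the files give TPM, the abundance of a gene per length relative to all RNA of the library, which keeps no record of depth. Summed over the 35 genes of a list of B lineage identity, TPM ran from 404 to 460 in the 0h libraries and lay between 90.6 and 113 after 48h. The 62 genes of a list of macrophage identity summed to between 75.1 and 87.1 TPM in uninduced cells and to between 2282 and 2639 after 48h. T cell markers summed to at most 3.78 TPM and erythroid and megakaryocyte markers to at most 3.09 TPM in any library, with 5 of 14 and 8 of 14 genes listed at 0 throughout. The 15 neutrophil and mast cell markers summed to at most 0.64 TPM at 0h and 1h, to between 9.64 and 17.0 TPM at 12h and to between 1.85 and 4.54 TPM at 48h, with 9 of the 15 listed at 0 throughout. The part of these cells in the results was not tested. Since these are bulk samples, fewer cells of a type and less RNA per cell cannot be told apart.

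Promoter sequences of 5 hub baits are shown because these baits carry the range of behaviour found. Mmp27 stands for baits that listed more partners at 48h, Clasrp and Tbce for baits that listed fewer, Irf2bp2 for a number that stayed high in all 4 lists, and Dse for a high number beside a rise in RNA. Each run holds 250 bases before and 30 bases from the annotated start (RefSeq, GRCm38.p6), 5′ to 3′ on the strand of the gene. Capitals mark matches to the C/EBP motif TTNNGCAA, the PU.1 motif GAGGAAGT or the AP-1 motif TGANTCA on either strand, and no matches overlapped in these 5 runs. The windows lie at chr9:7571146-7571425 (plus strand), chr10:34207206-34207485 (minus strand), chr8:126593957-126594236 (minus strand), chr7:19604457-19604736 (minus strand) and chr13:14039609-14039888 (minus strand).
Mmp27: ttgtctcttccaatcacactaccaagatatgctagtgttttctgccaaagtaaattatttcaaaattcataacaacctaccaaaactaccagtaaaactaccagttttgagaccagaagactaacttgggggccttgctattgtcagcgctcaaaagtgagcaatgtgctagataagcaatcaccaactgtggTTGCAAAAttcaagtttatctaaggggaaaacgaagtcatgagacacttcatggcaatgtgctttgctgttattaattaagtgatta
Dse: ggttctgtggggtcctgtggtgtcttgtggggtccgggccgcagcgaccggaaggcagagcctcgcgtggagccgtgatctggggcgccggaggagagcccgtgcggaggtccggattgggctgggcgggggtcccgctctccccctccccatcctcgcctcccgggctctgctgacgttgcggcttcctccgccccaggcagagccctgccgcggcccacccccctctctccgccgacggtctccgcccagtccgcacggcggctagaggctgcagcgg
Irf2bp2: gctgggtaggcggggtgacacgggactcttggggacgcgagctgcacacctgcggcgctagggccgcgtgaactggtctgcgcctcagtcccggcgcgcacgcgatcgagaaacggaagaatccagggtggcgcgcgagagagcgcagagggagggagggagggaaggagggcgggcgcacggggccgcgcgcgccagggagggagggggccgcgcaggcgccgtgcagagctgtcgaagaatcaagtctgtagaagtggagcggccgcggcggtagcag
Clasrp: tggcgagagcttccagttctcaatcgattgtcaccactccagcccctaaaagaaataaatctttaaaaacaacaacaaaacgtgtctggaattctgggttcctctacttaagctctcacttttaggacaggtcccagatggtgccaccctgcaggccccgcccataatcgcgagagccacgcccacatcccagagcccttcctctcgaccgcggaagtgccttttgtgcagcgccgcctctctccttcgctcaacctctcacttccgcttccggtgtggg
Tbce: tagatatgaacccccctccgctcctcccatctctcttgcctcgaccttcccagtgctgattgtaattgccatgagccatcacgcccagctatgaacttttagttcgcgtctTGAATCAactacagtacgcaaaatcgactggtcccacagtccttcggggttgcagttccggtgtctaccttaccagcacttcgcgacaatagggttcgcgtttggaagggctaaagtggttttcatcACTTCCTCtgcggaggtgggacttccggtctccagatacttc

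The Mmp27 window held 1 C/EBP match, which began 57 bases before the start, and the Tbce window held 1 PU.1 match and 1 AP-1 match, which began 12 and 139 bases before it. No match to the 3 motifs lay in the windows of Dse, Irf2bp2 and Clasrp. GC content over the full 300 bases of the reference window was 38.7% for Mmp27, 52.7% for Tbce, 56.0% for Clasrp, 71.7% for Irf2bp2 and 75.3% for Dse. In all, 424 of the 790 genes of hub baits had such a window with its start in the bait, in 480 windows. Of these, 9.38% held a C/EBP match, 4.17% a PU.1 match and 4.79% an AP-1 match, and the shares over 14413 windows of other baits were 8.96%, 2.88% and 6.13%. The median GC content was 60% in hub windows and 59.0% in the others, with medians of 20 and 17 CpG dinucleotides. A match describes letters and is not a site.

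From the first to the last time point, 309, 311, 239 and 331 hub baits reached 50 partners. The 12h list was also the smallest, and with numbers scaled to that list 254, 257, 239 and 241 baits reached 50. Over the 566 baits the median number of partners was 50.5, 51, 47 and 52 at the 4 time points, against 4 at each time point for the other baits. Many baits reached the threshold in only part of the lists. As the medians lie close to 50, a bait can cross it by a few partners. From 0h to 48h, 342 of the 566 baits differed by less than 1.5 times, so these counts describe the threshold. The threshold was reached in 1 list by 241 baits, in 2 lists by 132, in 3 lists by 87 and in all 4 lists by 106. The most frequent single-list group was 48h alone, with 105 baits, followed by 1h alone with 66, 0h alone with 54 and 12h alone with 16.

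The highest number in any list belonged to the bait of Esp8, a member of the exocrine gland peptides, with 124, 136, 120 and 85 partners at 0h, 1h, 12h and 48h. This bait stood apart, as 121 of its 124 partners at 0h lay on other chromosomes. A second bait, with starts of Kcnab3 and Rnf227, listed 105, 79, 65 and 77 partners, and 82, 66, 50 and 59 of these lay on other chromosomes. In the whole set only these 2 baits had most of their partners on other chromosomes, and 18, 15, 11 and 14 baits listed any such partner. With partners on the same chromosome alone, 564 baits reached the threshold.

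Of the other baits with the highest numbers, that of Pmis2, a gene needed for sperm function, listed 121, 133, 91 and 107 partners. The bait of Irf2bp2, a transcriptional corepressor, listed 122, 112, 102 and 94 partners, and 94 of those at 0h were listed again at 48h. Joining partners within 10 kb of each other left 2 stretches at 0h and 3 at 48h. Cdkl3, a kinase related to the cyclin-dependent kinases, had 121, 86, 72 and 85, and the shared bait of Glcci1 and A430035B10Rik had 101, 100, 87 and 126. The bait of Cpsf3, a subunit of the complex that cleaves pre-mRNA at its 3′ end, differed most between single steps. It also holds a start of Itgb1bp1, an integrin regulator, and it listed 27, 122, 48 and 6 partners. The bait of Dse, an enzyme of dermatan sulfate synthesis, listed 87, 90, 86 and 118 partners, and that of the predicted gene Gm5176 listed 103, 87, 113 and 106.

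**Figure D1:**
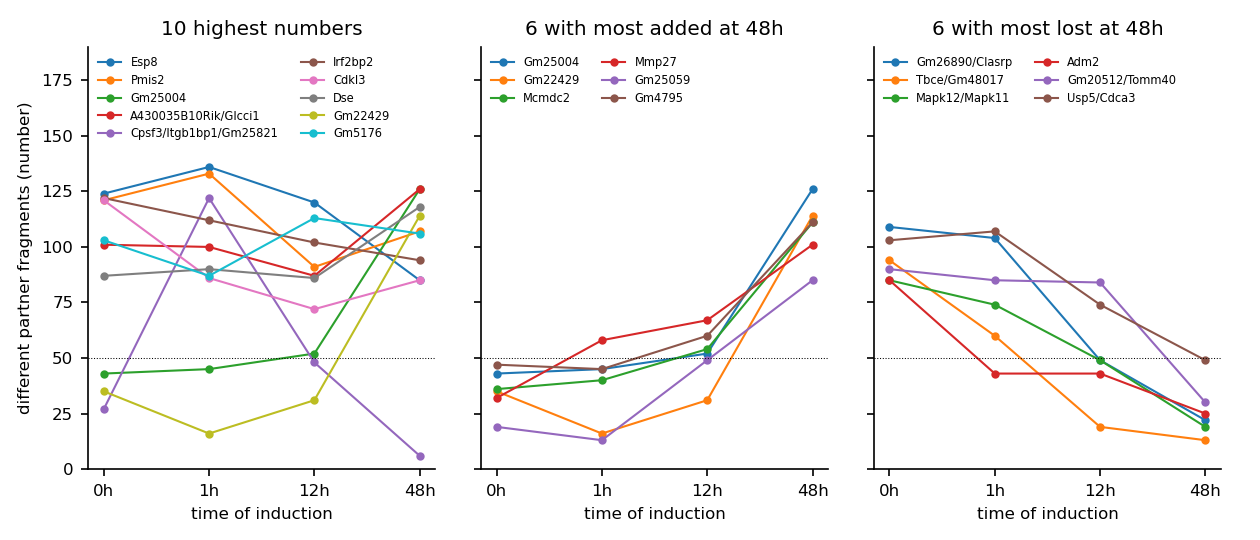
Number of different partner fragments (vertical axis) at 0h, 1h, 12h and 48h (horizontal axis) for the 10 hub baits with the highest number, the 6 that added most partners between 0h and 48h and the 6 that lost most, each line 1 bait named by the genes that start in it and the dotted line at the threshold of 50. Each point is 1 merged list without error; the bait of Mcmdc2 climbs from 36 to 111 and that of Clasrp drops from 109 to 22.

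From 0h to 48h, 108 baits listed at least 1.5 times more partners, 116 at least 1.5 times fewer and 342 lay between. Among other baits with a contact in either list, 34.7% listed at least 1.5 times more and 30.2% at least 1.5 times fewer, and the median of other baits was 4 partners in each list. The largest differences upward were found at Gm25004 (43, 45, 52 and 126 partners) and Gm22429 (35, 16, 31 and 114), which are small predicted genes listed at 0 TPM in every library. Mcmdc2, a relative of the MCM helicase subunits that acts in meiosis, had 36, 40, 54 and 111 partners. Mmp27, a matrix metalloproteinase, had 32, 58, 67 and 101. The fragments of Gm25059 (19, 13, 49 and 85) and Gm4795 (47, 45, 60 and 111) completed the 6 with most added. In all 6 the 48h list held the highest number.

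Of the 6 baits with most partners lost, that of Clasrp came first. Clasrp, an SR-type protein that binds a splicing kinase, shares its bait with Gm26890 and listed 109, 104, 49 and 22 partners. Tbce, a chaperone of tubulin folding, listed 94, 60, 19 and 13. The p38 kinase genes Mapk11 and Mapk12 share a bait that listed 85, 74, 49 and 19, and Adm2, a peptide of the calcitonin family on the same chromosome, had 85, 43, 43 and 25. Tomm40, the import channel of the outer mitochondrial membrane, had 90, 85, 84 and 30, so that its difference lay between 12h and 48h. Usp5, which recycles ubiquitin chains, and Cdca3, which acts at entry into mitosis, share a bait with 103, 107, 74 and 49 partners.

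**Figure D2:**
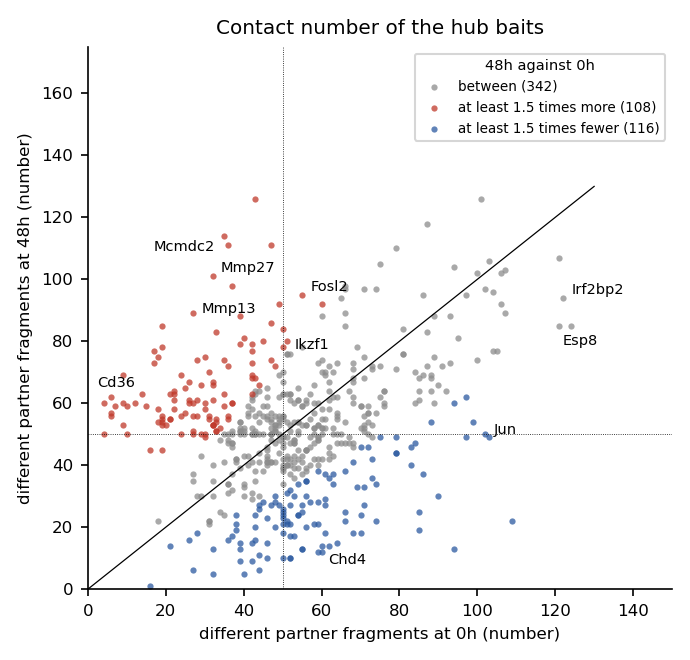
Number of different partner fragments of each of the 566 hub baits at 0h (horizontal axis) and 48h (vertical axis), each point 1 bait, coloured by whether the number at 48h was at least 1.5 times higher (108 baits), at least 1.5 times lower (116) or between (342). The solid line marks equal numbers and dotted lines mark the threshold of 50; Cd36 lies at 4 and 60 partners and Jun at 102 and 50.

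Hub baits took part in 21.1%, 20.8%, 19.8% and 20.1% of all contacts in the 4 lists. Their contacts spanned a median of 198, 194, 183 and 189 kb, against 187, 182, 165 and 173 kb for contacts between other baits and their partners. Both fragments were baits in 12.5% of hub contacts at 0h and 10.2% at 48h, and in 17.5% and 15.1% of the others. At least 1 partner of 323 baits at 0h and of 310 at 48h was itself a hub bait, and hub-to-hub contacts numbered 476, 482, 456 and 420. The median CHiCAGO score of a contact at 0h was 7.88 for hubs and 6.61 for other baits. These scores belong to the contacts that the rule counted.

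The high number of every hub bait rested on runs of nearby fragments, and none had 50 separate stretches of partners. When partners within 10 kb of each other were joined, hub baits had a median of 8 stretches at 0h, 1h and 12h and 7 at 48h, and no bait reached 50. The largest number of stretches was 29 at 0h, at the Esp8 bait. Hub fragments themselves were of ordinary size, with a median length of 5832.5 bp against 5884 bp and a GC content of 47.0% against 47.2%. Starts of 2 or more genes lay in 34.6% of them and in 28.0% of other baits. Between 0h and 48h hub baits kept 66.9% of their partner fragments, and 88.9% when a partner within 10 kb counted, while other baits kept 53.7% and 75.9%. These shares rest on the contacts that the rule counted, and other baits had a median of 4 partners per list. A bait with many partners in runs more easily has 1 within 10 kb, so the contrast is not read as a trait of hubs. The median hub bait had 78 different partners over the 4 lists and 23 that were in all of them.

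Many hub baits lay beside each other. With gaps of up to 500 kb allowed, they formed 305 neighbourhoods, of which 185 were single baits and 28 held 4 or more. The largest, of 12 baits at chr7:30533492-31120797, includes Pmis2, Usf2, Lsr and Hpn, and its baits summed to 913, 975, 711 and 654 partners. A neighbourhood of 11 baits at chr15:88818756-89377458 with Mapk11, Mapk12, Hdac10 and Plxnb2 had sums of 543, 701, 458 and 196. In contrast, 10 baits at chr10:33994501-34299087 with Dse, Rwdd1 and Tspyl1 had 511, 574, 569 and 832, and 6 baits at chr9:7272023-7571477 had 125, 243, 383 and 443. The latter hold Mmp13, Mmp12, Mmp1a, Mmp10, Mmp8 and Mmp27, genes of the matrix metalloproteinase family, of which Mmp1a is annotated as a polymorphic pseudogene. Baits of 1 neighbourhood lie close together and can be in contact with each other, so they were not taken as independent members.

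Starts of 790 annotated genes lay in hub baits, of which 552 are protein-coding, 46 antisense and 35 miRNA genes, while 12 baits held no annotated start. RNA of the hub genes was low to moderate. Over all 790, the median TPM of the 4 time points was 0.943, 1.19, 0.927 and 0.580. For 22403 genes of other baits it was 0.05, 0.103, 0.0900 and 0.0600 TPM. Among protein-coding genes alone the medians at 0h were 1.98 and 0.490 TPM, and 27.0% of hub genes and 14.8% of the others exceeded 5 TPM. Yet 132 hub genes were listed at 0 TPM in all 12 libraries, among them Esp8, Pmis2 and Gm25004 with some of the highest contact numbers. The 790 also include 29 snoRNA and 24 snRNA genes, and recovery of short RNA in these libraries was not tested. A listing at 0 is therefore not read as absence of RNA.

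Differences in RNA from 0h were tested by limma for the 16415 genes whose TPM averaged 0.1 or more on log2(TPM + 0.1) with Benjamini-Hochberg adjustment over all of them. A call needed an adjusted p below 0.05 together with a log2 fold change past 1 in either direction. This filter passed 549 of the 790 hub genes, located in 432 baits. Expression was not part of the rule, but genes are not replicates and no test was made over them. At 1h, 111 of the 549 were called higher and 15 lower, where 16.7% and 1.08% of all genes tested were called. At 12h the calls were 117 higher and 55 lower, beside 17.7% and 5.75% of all genes. At 48h they were 80 higher and 157 lower, beside 13.5% and 23.1%. Of 11268 tested genes of other baits, 13.8% were called higher and 1.17% lower at 1h, 16.05% and 6.84% at 12h, and 11.4% and 28.6% at 48h. The hub genes called lower at 48h were 28.6% as well. With a log2 threshold of 2, hub genes had 22 higher and 9 lower calls at 1h (3.59% and 0.378% of all genes), 31 and 28 at 12h (5.9% and 1.83%) and 32 and 77 at 48h (6.43% and 10.0%). With no fold threshold they had 167 and 18 (24.1% and 1.41%), 161 and 71 (22.3% and 7.82%) and 104 and 185 (15.9% and 27.2%).

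These counts depend on the scale of the libraries. Between 86.8% and 94.2% of all TPM in a library belonged to the 20 genes of highest mean, AY036118 and CT010467.1 above all, with ranges of 90.8% to 91.2% at 0h, 86.8% to 87.7% at 1h, 87.3% to 90.9% at 12h and 90.5% to 94.2% at 48h. TPM of all other genes are shares of what remained, and the part of this in the calls was not tested beyond the rescaling alternatives. Median-of-ratios scaling shifted the median over all genes by -0.52, -0.23 and 0.34 on the log2 scale for the 1h, 12h and 48h contrasts. It left 35 hub genes higher and 25 lower at 1h (4.39% and 2.43% of all genes), 83 and 76 at 12h (12.8% and 8.6%), and 128 and 111 at 48h (21.5% and 15.8%). Hub genes had median log2 fold changes of 0.52, 0.25 and -0.25 in these contrasts, against 0.59, 0.34 and -0.18 for all genes tested and 0.52, 0.23 and -0.40 for genes of other baits. The medians of hub genes were thus below those of all genes but not below those of other baits. After scaling, the medians at 48h were 0.15 for hub genes and 0.17 for all genes.

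RNA and contact numbers were then set side by side. Of 85 tested genes in baits with at least 1.5 times more partners at 48h, 30 were called higher at 48h and 9 lower, with a median log2 fold change of 0.45. Of 140 genes in baits with at least 1.5 times fewer partners, 12 were called higher and 50 lower, with a median of -0.51. The 324 genes of the baits between had 38 higher, 98 lower and a median of -0.40. Over all genes tested, 13.5% were called higher and 23.1% lower at 48h. Median-of-ratios scaling gave 40 higher and 6 lower where partners were more, 68 and 74 between, and 20 and 31 where they were fewer. Under this scaling the shares called lower in the latter 2 classes were close. Among all genes tested, 21.5% were then called higher and 15.8% lower. Without the baits of the Mmp neighbourhood, 26 of 81 genes with more partners were higher and 9 lower. This exclusion was chosen after the values were seen.

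The same classes were also compared at the earlier time points. Of the 85 genes with more partners at 48h, 26 were called higher and 1 lower at 1h, and 34 and 1 at 12h. Of the 324 between, the calls were 57 and 12, then 60 and 41, and of the 140 with fewer they were 28 and 2, then 23 and 13. Of all genes tested, 16.7% were called higher and 1.08% lower in the first of these contrasts and 17.7% and 5.75% in the second. After scaling the counts were 10 and 1, then 27 and 4, for more partners, 20 and 18, then 42 and 52, between, and 5 and 6, then 14 and 20, for fewer. The scaled shares over all genes tested were 4.39% higher and 2.43% lower at 1h, and 12.8% and 8.6% at 12h. Across the 549 genes, the log2 ratio of partner numbers and the log2 fold change of RNA at 48h had a Pearson correlation of 0.28 and a Spearman correlation of 0.26. This describes genes of shared baits and neighbourhoods and shared libraries. The class with more partners also began at lower RNA, with medians over its 140 genes of 0.152 TPM at 0h and 0.335 at 48h, while the class with fewer had 1.58 and 0.838 over 174 genes. In the other direction, Jun had 102 partners at 0h and 50 at 48h, and its RNA rose.

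**Figure D3:**
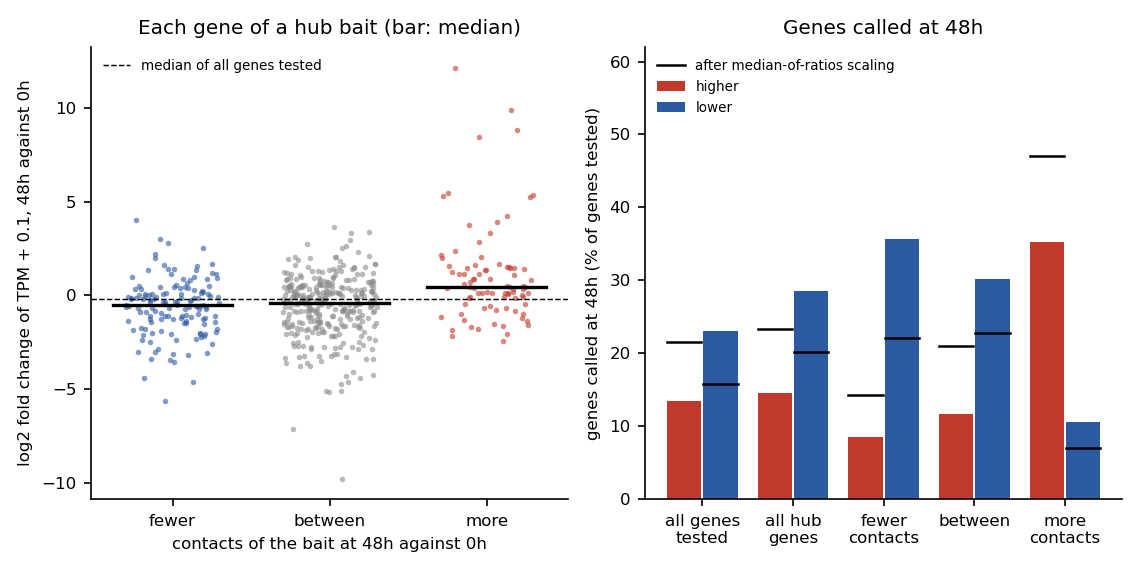
Left, log2 fold change of TPM + 0.1 at 48h against 0h (vertical axis) for each tested gene of a hub bait, by whether its bait listed at least 1.5 times fewer, between or at least 1.5 times more partners at 48h (140, 324 and 85 genes), with bars at the class medians and a dashed line at the median of all genes tested. Right, the percent of genes tested that were called higher (red) or lower (blue) at 48h among all genes tested, all hub genes and the 3 classes, with black lines at the same after median-of-ratios scaling. In the class with more partners 30 of 85 genes were higher and in that with fewer 12 of 140, beside 13.5% of all genes tested.

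Genes of the macrophage program were among the hub genes with the largest increases. Mmp12, the macrophage elastase, had 0, 0 and 0.02 TPM at 0h, 2.72, 2.62 and 2.83 at 12h, and 490.23, 574.97 and 409.2 at 48h. No library of 12h or 48h overlapped with 0h, which the ranking by fold change required at 48h. The log2 fold change of Mmp12 at 48h was 12.16 (standard error 0.21, limma, adjusted p = 2.75e-11). Its bait listed 14, 21, 72 and 63 partners. Mmp13, a collagenase, rose from 0, 0 and 0.02 TPM to 100.24, 110.28 and 90.19 at 48h (log2 fold change 9.88, standard error 0.25, limma, adjusted p = 2.22e-10), with 27, 56, 65 and 89 partners. Mmp8, the neutrophil collagenase, was listed at 0 in all 0h libraries and at 36.18, 43.29 and 28.19 TPM at 48h, while its bait had 21, 35, 57 and 63 partners. The neighbouring Mmp27 reached only 0.07, 0.11 and 0.12 TPM at 48h despite 101 partners, and was too low to be tested. Fold changes here are on the log2(TPM + 0.1) scale, which understates those of genes near 0.

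Thbs1 encodes thrombospondin, an adhesive glycoprotein of the matrix. It had 0.03, 0 and 0.01 TPM at 0h and 43.72, 51.47 and 57.56 at 48h (log2 fold change 8.81, standard error 0.22, limma, adjusted p = 2.22e-10), beside 32, 19, 38 and 53 partners. The β-glucan receptor gene Clec7a went from 0.95, 1.07 and 0.38 TPM to 37.54, 39.7 and 33.53 (log2 fold change 5.46, standard error 0.29, limma, adjusted p = 5.84e-08), with 26, 39, 38 and 60 partners. Ccl3, a chemokine of macrophages, was higher at 1h already, at 15.85, 17.42 and 13.43 TPM against 2.52, 0.7 and 1.57, and reached 64.4, 70.16 and 51.81 at 48h. Its partners numbered 19, 30, 27 and 54. Cd36, a scavenger receptor, had the fewest partners at 0h of the named genes, with 4, 6, 28 and 60. RNA of Cd36 was at 0.99, 0.56 and 0.41 TPM at 0h and 0.14, 0.38 and 0.9 at 12h, which overlap, and at 13.72, 15.71 and 11.56 at 48h (log2 fold change 4.25, standard error 0.48, limma, adjusted p = 2.21e-05). Fgl2, a secreted fibrinogen-like protein, rose at 48h from at most 0.08 TPM to between 4.9 and 6.63. All 5 hub members of the macrophage list (Mmp8, Mmp12, Cd36, Ccl3 and Clec7a) were called higher at 48h, as were 47 of the 53 tested genes of the whole list. Over all genes tested, 13.5% were called higher and 23.1% lower at 48h. The list had 56 genes with a bait, of which these 5 (8.93%) had a hub bait, beside 3.41% of all genes with a bait. This difference was not tested.

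Myeloid transcription factors showed no single direction. Fosl2, an AP-1 subunit, was at 0.02, 0 and 0.02 TPM at 0h and rose at each time point tested, to 0.9, 1.79 and 1.04 at 1h, 6.38, 7.6 and 8.49 at 12h and 3.27, 4.08 and 5.44 at 48h (log2 fold change 5.24 at 48h, standard error 0.28, limma, adjusted p = 6.67e-08). Its bait listed 55, 55, 86 and 95 partners. RNA of Jun, another AP-1 subunit, was 4.51, 4.94 and 4.63 TPM at 0h and 22.61, 27.86 and 32.03 at 48h (log2 fold change 2.51, standard error 0.17, limma, adjusted p = 3.31e-07), while its partners numbered 102, 68, 47 and 50. Bhlhe40, a basic helix-loop-helix repressor, was higher at 12h (6.63, 8.74 and 9.8 TPM against 4.24, 3.49 and 2.71) and lower at 48h (0.39, 0.73 and 0.96), with 85, 79, 62 and 64 partners. Its 12h call, with a log2 fold change of 1.25, was lost after median-of-ratios scaling (0.98). The NF-κB subunit genes Rel and Relb were not called at 48h (log2 fold changes 0.69 and 0.09). Relb had 60, 41, 34 and 12 partners and Rel 33, 26, 33 and 55. After median-of-ratios scaling Rel was called higher, with a log2 fold change of 1.21. Of this list 53 genes had a bait and 5 a hub bait, 2 of which were called higher and 1 lower at 48h. Of the 47 tested genes of the whole list 19 were called higher and 6 lower, where 13.5% and 23.1% of all genes tested were called.

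**Figure D4:**
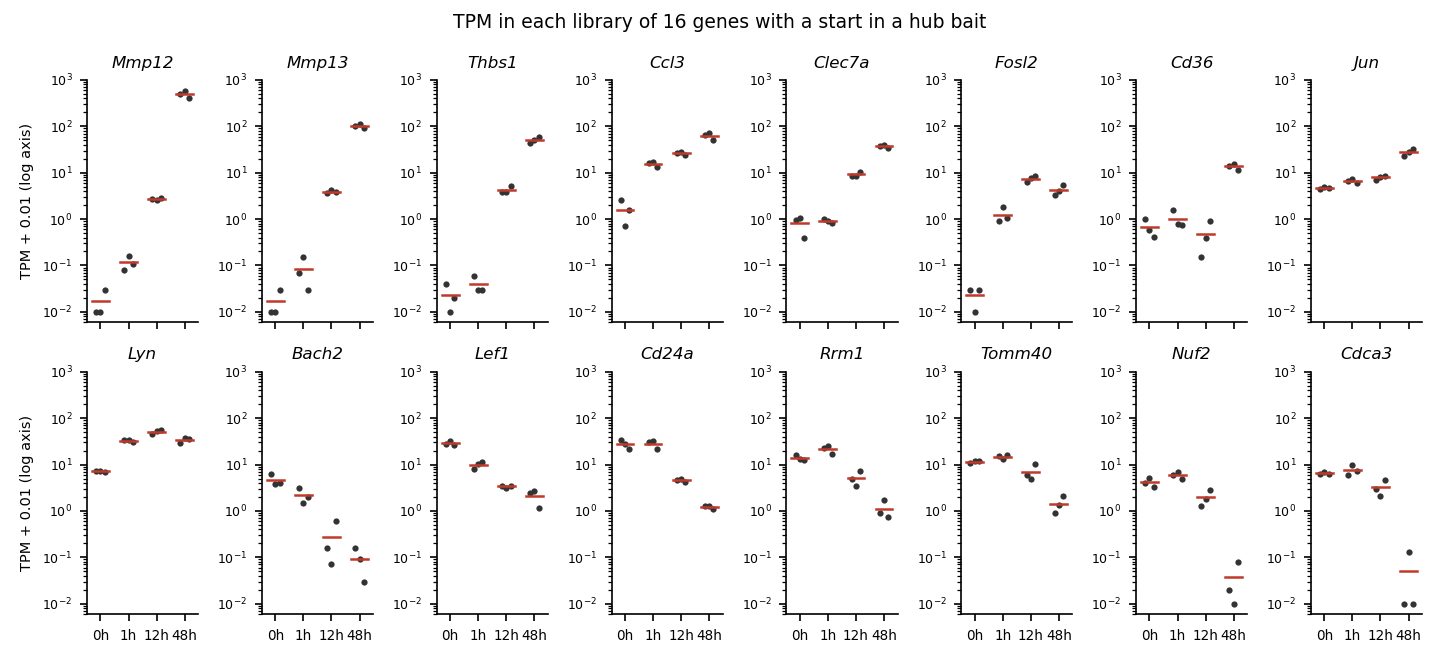
TPM + 0.01 on a log axis in each of the 3 libraries (points) at 0h, 1h, 12h and 48h for 16 named genes with a start in a hub bait, with red bars at the mean. Mmp12 climbs from at most 0.02 TPM at 0h to at least 409.2 at 48h, and Cdca3 drops from at least 6.15 to at most 0.12.

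Of the transcription factors of the B lineage, 7 of 35 genes that had a bait had a start in a hub, as did 3.41% of all genes with a bait. No test of this difference was made, and that base includes noncoding genes and genes too low to be tested. Bach2, a repressor that restrains terminal differentiation of B cells, had 6.29, 3.74 and 4.08 TPM at 0h and 0.15, 0.08 and 0.02 at 48h (log2 fold change -4.74, standard error 0.51, limma, adjusted p = 1.58e-05). Its bait listed 56, 50, 45 and 61 partners, and 42 of those at 0h were listed again at 48h. Lef1, a Wnt pathway factor of early B cells, fell from 28.28, 31.7 and 26.38 TPM to 2.47, 2.71 and 1.15 (log2 fold change -3.79, standard error 0.27, limma, adjusted p = 6.76e-07) beside 73, 58, 48 and 71 partners. RNA of Foxo1, which activates the recombination genes, was 4.15, 2.88 and 2.8 TPM at 0h, and fell to 0.78, 0.82 and 0.57 at 1h, with 50, 46, 56 and 63 partners. Ikzf1, or Ikaros, went from 33.94, 26.57 and 27.11 TPM to 8.13, 10.12 and 11.55 at 48h (log2 fold change -1.55, standard error 0.17, limma, adjusted p = 1.8e-05), and listed 51, 97, 69 and 76 partners. In these 4 genes no library of 48h overlapped with 0h, and partner numbers at 48h were above those at 0h for all but Lef1. For Bach2 the absence of overlap was also a condition of its ranking by fold change.

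The remaining factors were Pou2f2, Foxp1 and Tcf4. Pou2f2, the octamer factor Oct2, was lower at 1h, at 0.26, 0.15 and 0.29 TPM against 2.24, 2.04 and 1.45, and was not called at 48h. Its partners numbered 43, 63, 51 and 24. Foxp1 (66, 51, 77 and 89 partners) had a log2 fold change of -0.79 at 48h, and Tcf4 (43, 34, 54 and 68 partners) of 0.50, and neither was called. Without 0h replicate 3, Foxp1 was called lower (-1.01). Tcf4 was called higher after median-of-ratios scaling, with 1.03. Among surface and signalling genes of the B lineage, Cd24a fell from 33.34, 27.41 and 22.02 TPM to 1.24, 1.28 and 1.08 with 62, 51, 51 and 67 partners. Lyn, a kinase that B cells and myeloid cells both use, rose from 7.21, 7.28 and 6.97 TPM to 33.62, 34.52 and 30.67 at 1h while its bait listed 49, 50, 33 and 27 partners. Both were called at 48h without overlap between libraries. Of the 32 tested genes of the whole list of B lineage identity, 2 were called higher and 22 lower at 48h. Over all genes tested, the shares were 13.5% and 23.1%. The T cell list had 1 hub member of 10 genes with a bait, Cd5, which B cells can also carry and which was called lower at 48h. No gene of the erythroid or the neutrophil list lay in a hub bait.

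Of the 8 named genes with the largest decreases at 48h, 3 act in cell division (Cdca3, Nuf2 and Trip13) and 3 encode histones. Of the list of cell cycle and replication genes, 3 of 61 with a bait had a hub bait (Rrm1, Btg1 and Ccnd2), and 5 of 60 tested were called higher and 50 lower at 48h, beside 13.5% and 23.1% of all genes tested. Cdca3 had 6.33, 7.03 and 6.15 TPM at 0h and 0, 0.12 and 0 at 48h (log2 fold change -5.66, standard error 0.36, limma, adjusted p = 2.63e-07). Nuf2, a kinetochore subunit, fell from 4.08, 5.14 and 3.31 TPM to 0.01, 0 and 0.07 (log2 fold change -5.10, standard error 0.32, limma, adjusted p = 2.05e-07), while its bait listed 49, 48, 52 and 62 partners. Trip13, an ATPase of the spindle checkpoint, fell from 5.38, 4.64 and 3.6 TPM to 0.04, 0.38 and 0 with 63, 43, 32 and 34 partners. Dtl, which targets replication proteins for degradation, was lower at 12h already, at 0.34, 0.26 and 0.31 TPM against 8.11, 5.49 and 5.78, and its partner numbers were 43, 53, 61 and 64. Rrm1, a subunit of ribonucleotide reductase, fell from 16.19, 13.2 and 12.27 TPM to 0.87, 1.67 and 0.73 at 48h with 51, 69, 51 and 42 partners. Btg1, which restrains proliferation, went the other way, from 3.33, 1.89 and 2.45 TPM to 20.53, 23.66 and 34.08, and listed 15, 13, 21 and 59 partners. Ccnd2, a D-type cyclin, had 55, 64, 71 and 78 partners and at most 0.27 TPM in any library.

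A bait in the histone cluster on chromosome 13 held starts of Hist1h4h, Hist1h2af and Hist1h3g and listed 64, 61, 58 and 55 partners. Hist1h4h had 132.37, 144.31 and 161.8 TPM at 0h and 1.55, 5.41 and 8.3 at 48h, Hist1h2af was listed at 0 in all 48h libraries, and Hist1h3g had at most 0.61 TPM there against at least 47.83 at 0h. Near-identical copies share reads between such genes, so their single values are uncertain. The hairpin gene mmu-mir-3535 had 3.13, 7.13 and 1.94 TPM at 0h and was listed at 0 at 12h and 48h. Its start lies in a bait shared with Ncl, and recovery of short RNA was not tested. Rnase12, a ribonuclease family member, had 8.15, 6.72 and 5.3 TPM at 0h. It was called lower at 1h already, at 0.5, 2.37 and 1.5 TPM, and lay at 0.46, 0.26 and 0.19 at 12h. The Rnase12 bait listed 60, 66, 59 and 58 partners.

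Of a list of feedback regulators of cytokine and TGF-β signalling, 9 of 49 genes with a bait had a hub bait (18.4%, beside 3.41% of all genes with a bait), and the difference was not tested. The base includes noncoding genes and genes too low to be tested, and in the housekeeping list the share was 14.3%. Dusp4, a phosphatase that shuts off MAP kinases, fell at 1h from 10.26, 11.29 and 9.27 TPM to 1.14, 1.78 and 1.48 (log2 fold change -2.74, standard error 0.29, limma, adjusted p = 0.000124), and its bait listed 58, 32, 32 and 47 partners. Zfp36l2, which promotes mRNA decay, fell at 1h from 27.98, 24.32 and 26.36 TPM to 6.51, 6.06 and 6.72 and was not called at 48h, with 39, 31, 35 and 50 partners. Rgs2, a brake on G protein signalling, rose at 48h from 14.16, 10.41 and 11.79 TPM to 50.36, 59.88 and 41.68, with 54, 44, 37 and 61 partners. Smad7, the inhibitor of TGF-β signalling, was lower at 48h, at 0.52, 0.55 and 0.6 TPM against 2.44, 0.86 and 1.51 (log2 fold change -1.27, limma, adjusted p = 0.022). This call was lost after median-of-ratios scaling (-0.80), quantile normalization (-0.91) and rescaling without the 20 top genes (-1.05). A pseudocount of 1 (-0.70) and a fit of only the 6 libraries compared (-1.27) lost it as well. The call was also lost without any 1 of 0h replicates 1 (-0.92) and 3 (-1.25) and of 48h replicates 1 (-1.23) and 2 (-1.26). The Smad7 bait had 50, 52, 27 and 18 partners. Dusp6, Spry1, Spred1 and Nfkbia were not called at 48h. Spry1, an inhibitor of receptor kinases, listed 84 partners at 48h and 50 at 0h and had at most 0.63 TPM. Dusp6 was called higher after the scaling, with a log2 fold change of 1.41.

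Among genes with the earliest responses, Gem, a small GTPase, fell at 1h from 5.15, 5.05 and 5.39 TPM to 0.15, 0.59 and 0.53, while its bait listed 52, 14, 32 and 47 partners. Dhrs3, an enzyme of retinoid metabolism, rose at 1h from 1.39, 0.88 and 0.59 TPM to 11.87, 11.03 and 8.73. Its RNA was also called higher at 12h and 48h (log2 fold changes 3.73 and 2.81), while its bait listed 69, 93, 49 and 33 partners. Ap3s1, a subunit of a vesicle adaptor, rose at 1h from 1.2, 2.46 and 2.31 TPM to 18.05, 21.76 and 14.22, with 28 and 38 partners, and had 74 at 48h. In all 3 genes the libraries of 0h and 1h did not overlap, which was a condition for naming them.

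RNA of the baits with the most extreme numbers followed no common course. In the class with most partners added, Mcmdc2 had 1.51, 1.91 and 0.91 TPM at 0h and 3.61, 3.22 and 2.86 at 48h (log2 fold change 1.16, standard error 0.29, limma, adjusted p = 0.0064). The call was lost without 0h replicate 3 (log2 fold change 0.88) and with a pseudocount of 1 (0.81). Of the genes with most partners lost, Tomm40 fell from 10.6, 11.92 and 12.19 TPM to 0.88, 1.31 and 2.11 (log2 fold change -3.01, standard error 0.31, limma, adjusted p = 1.08e-05). Clasrp was lower at 48h, at 0.87, 1.08 and 1.7 TPM against 3.74, 2.02 and 2.39 (log2 fold change -1.10). This call was lost after median-of-ratios scaling (-0.61), quantile normalization (-0.67) and rescaling without the 20 top genes (-0.82). A pseudocount of 1 (-0.74) and a fit of only the 6 libraries compared (-1.10) lost it as well. The call was also lost without 0h replicate 1 (-0.85) or 48h replicate 1 (-0.90). Tbce, Mapk11, Mapk12 and Usp5 were not called at 48h, with log2 fold changes of -0.09, -0.08, 1.14 and -0.81, and Mapk12 stayed at or below 0.85 TPM in every library. Mapk12 was called higher at 48h without 48h replicate 1 (1.64) and with TPM rescaled to leave out the 20 top genes (3.28). At 1h, in contrast, Clasrp, Tbce, Mapk11 and Mapk12 were called higher, with log2 fold changes of 1.04, 1.51, 1.55 and 2.05, and none of these calls held after median-of-ratios scaling (0.46, 0.91, 0.97 and 1.61). Gm26890 overlaps Clasrp, and Itgb1bp1 overlaps Cpsf3, and the library kit did not mark strand, so reads from the stretch that such a pair shares cannot be told apart.

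Of the baits with the highest numbers, Dse rose from 1.22, 1.78 and 1.3 TPM at 0h to 5.58, 5.58 and 7.63 at 48h (log2 fold change 2.06, standard error 0.28, limma, adjusted p = 8.86e-05). Irf2bp2 was higher at 12h, at 7.09, 8.52 and 9.63 TPM against 3.47, 3.28 and 3.66, and at 4.91, 5.7 and 6.86 at 48h was above every 0h library, though below the fold threshold (log2 fold change 0.72). After median-of-ratios scaling its 12h call was lost (0.97) and it was called at 48h (1.24). Cpsf3 was lower at 48h, at 3.43, 2.6 and 3.16 TPM against 9.99, 9.03 and 6.68, and this call was also lost after scaling (log2 fold change -1.44, and -0.92 after it). At 1h, when 122 partners were listed for its bait, Cpsf3 was at 10.14, 7.27 and 7.83 TPM, which overlaps with 0h. Glcci1 and Cdkl3 were not called at 48h, and both were called higher after scaling (log2 fold changes 1.44 and 1.02). Glcci1 was also called higher without 48h replicate 1 (1.29).

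Of the list of chromatin regulators, 3 of 67 genes with a bait had a hub bait (4.48%, beside 3.41% of all genes with a bait). Chd4, the ATPase of the NuRD complex, had 59, 36, 24 and 12 partners and 19.64, 17.01 and 16.8 TPM at 0h against 8.1, 8.96 and 10.09 at 48h, just short of the fold threshold (log2 fold change -0.97). Without 0h replicate 2 (-1.003), 0h replicate 3 (-1.01) or 48h replicate 3 (-1.05) it was called lower. Hmgb1, an abundant DNA-bending protein, fell from 92.2, 77.37 and 66.08 TPM to 12.15, 12.99 and 8 with 50, 51, 51 and 39 partners. Chd7, another chromatin remodeller, was called higher at 12h only among the 3 time points, and that call was lost after scaling (0.84). The housekeeping list had 2 hub members of 14 with a bait (14.3%). Hprt (41, 52, 31 and 59 partners) was called lower at 48h, and Tbp (50, 37, 29 and 34 partners) was not. Without 0h replicate 2, Tbp was called lower (-1.05).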

How the data were processed

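RNA-seq of 12 libraries and PCHi-C of 4 time points were analysed, and Hi-C files were not used. Per the submitters' processing notes and the study's methods, reads were trimmed (Trim Galore 0.6.2), mapped to mm10 (HISAT2 2.1.0) and quantified with RSEM, and the authors deposited TPM per gene. All 55450 genes of the table were found in GENCODE M21. For PCHi-C the authors merged 2 replicates per time point and called contacts with CHiCAGO. Scores of at least 5 fill the value column deposited for 0h. Those deposited for 1h, 12h and 48h hold whole numbers from 2 upward without a named unit, read here as counts of read pairs and left out of the results. All 18175 baits start at a HindIII site of GRCm38.p6.

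Partners were counted from rows in either direction. Genes were assigned by transcript starts inside the bait. limma 3.58.1 in R 4.3.3 was fitted to log2(TPM + 0.1) for genes whose TPM averaged 0.1 or more, with 12 libraries in 1 model, contrasts against 0h and eBayes with trend. The fold threshold is the methods' fold change, read as a ratio. The model was tested on simulated data. Counting and joins used Python 3.11.15, pandas 2.3.3 and numpy 2.4.6. TPM keep no depth, so the 3 libraries per time point limit the precision. Median-of-ratios factors came from genes above 0 in all libraries that averaged 1 TPM or more.

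Named genes are those of the 10 baits with the highest number, of the 6 that gained and the 6 that lost most partners from 0h to 48h, the called genes with the largest changes (3 per direction at 1h, 4 at 12h, 8 at 48h) without overlap and averaging 1 TPM or more, and members of fixed lists, of which 1 is not reported here. The printed promoters were chosen from the first 3 of these groups and cut to 30 bases after the start. The members and lists were chosen with earlier results of these data known. Alternatives varied the threshold and how partners were counted, the pseudocount, filter, scaling, trend, libraries, replicate block and fold threshold.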

Additional observations from a re-analysis of the deposited data

How the results depend on the processing

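The number of hub baits was 1071 at a threshold of 40, 318 at 60 and 0 when partners within 10 kb were joined. It was within 1.5 times of 566 when partners were taken only from rows that list the bait first (505), with a 0h score of at least 10 (512), with scaled lists (478) and on the same chromosome (564). At a score of 10, only 12 baits reached 50 at 0h, against 309 at the main score. The lists of 1h, 12h and 48h hold no scores and were not filtered, so the 512 does not test a stricter score. Medians of partners with a threshold of 60 were 61, 60, 52 and 61 at 0h, 1h, 12h and 48h, and per 100000 contacts of the list 36.4, 37.0, 35.7 and 36.1. A factor of 2 left 67 baits with more and 73 with fewer partners at 48h, and scaling to the smallest list 99 and 132. Partners within 10 kb raised the shared part to 88.9%. Taking only the 5′ end of a gene record gave median TPM of 0.735, 1.09, 0.723 and 0.482.

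For the calls in limma, a pseudocount of 1 gave 61, 64 and 52 higher calls in the 1h, 12h and 48h contrasts and 33 lower calls at 12h. Quantile normalization left 33 genes up and 27 down at 1h and 69 up at 12h, and rescaling without the 20 most abundant genes 37 higher at 1h. Median-of-ratios scaling gave 35 higher and 25 lower at 1h and 128 higher at 48h, with median log2 fold changes of 6.31e-05, 0.020 and 0.15 at 1h, 12h and 48h. Under a log2 threshold of 2, higher calls numbered 22, 31 and 32 and lower calls 9, 28 and 77 in the 3 contrasts, and no fold threshold gave 167 higher at 1h. Baits with 60 or more partners held 61, 64 and 39 higher calls in the 3 contrasts, 9 lower calls at 1h and 97 at 48h. Only 318 baits reach 60, against 566 that reach 50, so this gene set is smaller and its counts are not read as fewer calls per gene. Leaving out 1 library at a time gave 86 to 120 higher and 12 to 16 lower at 1h, 97 to 117 and 44 to 57 at 12h, and 78 to 88 and 141 to 166 at 48h. The other alternatives kept each count within 1.5 times. For the pseudocount, quantile, 20-gene rescaling and replicate block settings, shares over all genes are not given, so these counts stand only beside the main counts.

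With a replicate block, higher calls numbered 113, 116 and 82 and lower calls 17, 53 and 160 in the 3 contrasts. The deviations of same-numbered libraries correlated at -0.012 to 0.257, over 0.1 in 7 of 18 pairs. Of these, 5 were among the 6 pairs of libraries numbered 3, whose 24 correlations with other numbers were all below 0, while replicate 1 had 2 and replicate 2 had 0. Since not every pair passed and 7 of 12 libraries correlated best with their own number, the numbers were not taken to pair the samples. Of the single genes named, none changed sign where called. TPM hold no depth, and contact numbers have no replicates, so neither has an error from counting here.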
